A study of Mus musculus with 18 samples.

Results

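The response of newly transcribed RNA to interferon α (IFNα) was compared between NIH-3T3 cells in which protein synthesis was blocked with cycloheximide (CHX) and cells in which it was not. For each probe set of the array, the difference between IFNα + CHX and Mock + CHX minus the difference between IFNα and Mock without CHX was taken on the log2 scale. This quantity is called the interaction here. A positive value means a larger log2 response to IFNα with CHX than without it. The comparison rests on 12 of the 18 arrays of the series, with 3 arrays labelled as biological replicates in each of 4 treatments. In the IFNα + CHX treatment, cells of this established line of mouse embryonic fibroblasts received CHX 15 min before 100 U/ml IFNα was added for 60 min. The Mock + CHX cells received CHX and no interferon, the IFNα cells received interferon and no CHX, and the Mock cells received neither. In the cells without CHX, the authors used DMSO in the 15 min of pre-treatment as its control. In all treatments RNA was labelled with 500 µM 4-thiouridine (4sU) between 30 and 60 min of interferon or mock treatment. The 4sU-labelled RNA was purified before hybridisation to Affymetrix MG 430 2.0 arrays. The 6 remaining arrays hold cells given interferon γ (IFNγ) with CHX or without it, 3 each, and serve below for a comparison of the CHX effect under IFNα with that under IFNγ. All groups come from a single cell line grown in culture.

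IFNα binds the receptor chains encoded by *Ifnar1* and *Ifnar2*, and the kinases encoded by *Jak1* and *Tyk2* then activate the transcription factor complex ISGF3. This complex binds interferon-stimulated response elements (ISREs) and forms from proteins that cells already hold, before any new protein is made. Some of the proteins produced in response, such as IRF1, act as activators of further genes, while others, such as SOCS1 and USP18, dampen the signal, and in the presence of CHX neither kind can be newly made.

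The arrays had medians of 9.6 to 10.8 intensity units and 75th percentiles of 115.8 to 138.7, and no columns of the table were identical. The deposited table gives no detection calls, so that for a dim probe set only its intensities can be given. The weakest probe set tested reached 8.5 on its brightest array, and this level is used below to mark dim values. Of 18 fibroblast markers 17 were measured, and each of the 17 was above 100 on every array. Their summed intensity was 77370 to 82500 in IFNα + CHX cells, 74780 to 82140 in Mock + CHX cells, 67160 to 69300 in IFNα cells and 71470 to 77550 in Mock cells. Of 15 leukocyte markers 5 were measured, with sums of 328.3 to 756.2, 329.8 to 579.7, 264.9 to 370.2 and 266.8 to 353.1 in the same order, and 2 of the 5 were above 100 on every array in both treatments with CHX, against 1 in both without it. None of the 6 measured epithelial markers of 10 was above 100 on any array, and of 10 endothelial markers 2 were measured, with sums of at most 88.6. No marker of these lists passed the interaction test.

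The log2 response to IFNα was significantly higher with CHX than without it for a small set of probe sets and significantly lower for none. A positive interaction without regard to significance was more common. It was found for 117 of the 128 probe sets that IFNα raised significantly without CHX. Of 27773 probe sets tested, 52 had a significantly positive interaction (0.187% of all tested) and 0 had a significantly negative one (0%) where a call required an adjusted p-value under 0.01 together with a 2-fold or larger change (limma with Benjamini-Hochberg adjustment). At an unadjusted p-value under 0.05 there were 876 positive and 223 negative probe sets. The median interaction over all tested probe sets was −0.0163, and that of the 52 was 1.86, with a range of 1.16 to 5.52. As RNA of whole cultures was measured, a change in every cell and a change in part of the cells cannot be told apart. Of the 52 probe sets 43 carried a single gene symbol, and these stood for 39 genes. A further 5 carried several symbols and 4 carried none. The count was 29 when the 12 arrays were fitted alone, and 26 of these were among the 52. Leaving out single arrays gave 38 to 45 positive calls and 0 to 2 negative ones, with 2 negative calls without IFNα + CHX replicate 3 and 1 without IFNα replicate 1 or 3.

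The 52 fell into classes according to whether IFNα alone raised them. IFNα raised 29 of them significantly already without CHX, where 128 probe sets rose (0.461% of all tested) and 11 fell (0.0396%). In these 29 the median log2 response was 5.67 with CHX and 3.18 without it. IFNα raised a further 21 significantly only in the presence of CHX, where 247 probe sets rose in all (0.889%). The lack of a call without CHX does not show that they did not respond there. Their median log2 response was 2.26 with CHX and 0.134 without it. The remaining 2 probe sets, that of *Itgb8* and the unnamed 1440084_at, did not rise with IFNα under either condition and are described at the end of the account of the members. The plot of the response with CHX against that without it places the 21 between −0.48 (*Gpr155*) and 0.93 (*Crem*) on the axis without CHX. The 29 mostly lie at higher responses on both axes.

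**Figure D1:**
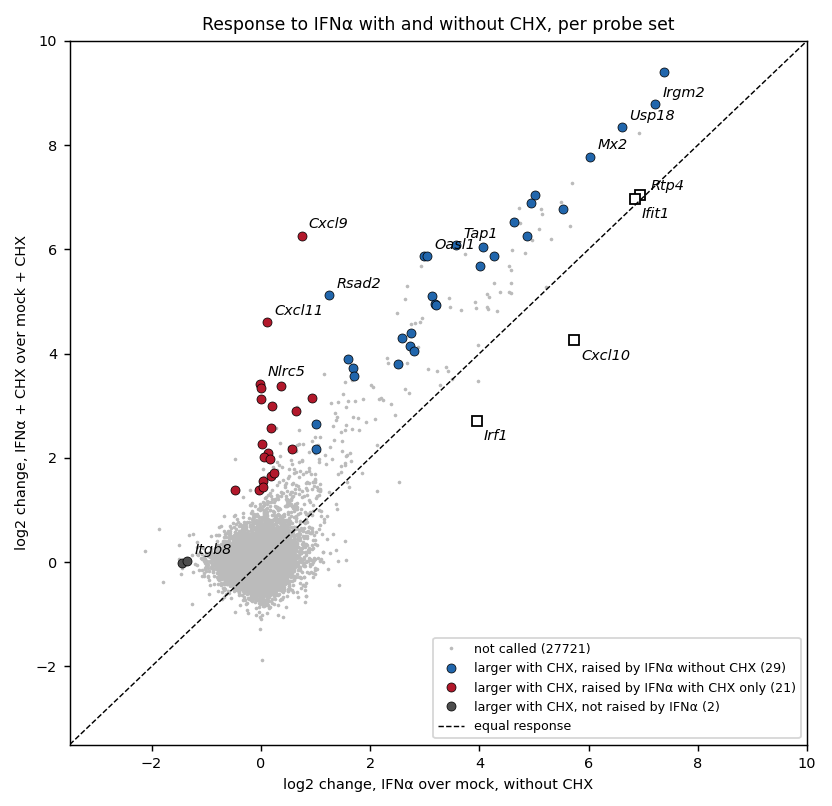
Log2 response to IFNα with CHX (IFNα + CHX over Mock + CHX, vertical axis) against the log2 response without CHX (IFNα over Mock, horizontal axis), each point 1 probe set as the mean of 3 arrays per treatment, with squares for 4 named genes that were not called. The 52 probe sets with a significantly positive interaction lie above the line of equal response, with *Cxcl9* (6.26 with CHX, 0.74 without) and *Cxcl11* (4.61 with CHX, 0.12 without) among the farthest from it.

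The promoters of these genes were searched for the ISRE, the element bound by ISGF3 and by IRF proteins. Promoter sequences (250 bases before to 50 bases after the transcription start, RefSeq, GRCm38.p6) were found for 28 of the 39 genes. *Apol6*, *BC023105*, *Crem*, *Cxcl11*, *Iigp1*, *Mx1*, *Mx2*, *Nlrc5*, *Parp14*, *Parp9* and *Usp18* had no entry. The ISRE core GAAANNGAAA, or TTTCNNTTTC on the opposite strand, was present in 7 of the 28 genes (25%, exact binomial 95% interval 10.7 to 44.9%), against 1079 of 27025 genes in the table (3.99%). Among genes raised by IFNα without CHX 6 of 15 held it (40%, interval 16.3 to 67.7%), and among those raised with CHX only 1 of 12 did (8.33%, interval 0.211 to 38.5%). These intervals overlap and cover counting error only. The shorter core GAAANNGAA, which every longer match contains, was present in 13 of the 28 genes (46.4%), against 9.76% of all genes in the table. The STAT dimer element TTCNNNGAA was present in 3 of the 28 genes (10.7%), against 9.55% of all genes. A match describes letters in this window and not a bound site. The windows around the ISRE cores that lie upstream of the transcription start are given below because they belong to members described in the following paragraphs, with the core in capitals, read along the strand of the gene. *Oas1c* is the single gene of the class raised with CHX only, and its window holds a pair of overlapping cores. The first base of the core lies at −120 in *Rsad2*, −114 in *Oas1c*, −64 in *Irgm2*, −48 from the nearer of the start sites of *Slfn8* and −41 in *Trim30d*, counted from the transcription start.
Rsad2, chr12:26456533-26456602, minus strand: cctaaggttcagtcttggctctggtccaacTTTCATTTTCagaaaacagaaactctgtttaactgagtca
Oas1c, chr5:120812583-120812658, minus strand: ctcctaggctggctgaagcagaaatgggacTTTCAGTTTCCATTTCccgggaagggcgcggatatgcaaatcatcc
Irgm2, chr11:58214883-58214952, plus strand: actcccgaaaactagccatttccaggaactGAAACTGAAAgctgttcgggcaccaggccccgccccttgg
Slfn8, chr11:83020819-83020888, minus strand: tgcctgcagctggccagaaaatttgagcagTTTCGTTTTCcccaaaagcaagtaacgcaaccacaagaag
Trim30d, chr7:104507851-104507920, minus strand: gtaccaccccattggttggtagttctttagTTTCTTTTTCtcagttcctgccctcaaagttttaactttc
*Ifih1* and *Trim21* held the core after their transcription start.

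The strongest interactions were those of single probe sets of chemokine genes. *Cxcl9* and *Cxcl11*, both on chromosome 5, encode ligands of the receptor CXCR3 that attract activated T cells. The *Cxcl9* probe set 1418652_at had intensities of 623.1, 539.8 and 318.7 in IFNα + CHX cells, against 6.5, 6.3 and 5.8 in Mock + CHX cells, and of 10, 13.1 and 10 in IFNα cells, against 5.8, 7.9 and 6.1 in Mock cells. All 3 IFNα + CHX arrays were thus far above the other 9, and the IFNα arrays without CHX were above the Mock arrays but at most 13.1. The interaction was 5.52 (SE 0.30, adjusted p = 7.20e-07), a 45.8-fold larger response with CHX. The values without IFNα, 5.8 to 7.9, are dim, and the fold depends on them. The other *Cxcl9* probe set, 1456907_at, had an interaction of 0.60 and was not called. The *Cxcl11* probe set 1419697_at had intensities of 284.9, 272.2 and 114.8 in IFNα + CHX cells, against 9.4, 8.3 and 7.9 in Mock + CHX cells, and of 9.1, 8.7 and 9.0 in IFNα cells, against 8.8, 8.2 and 7.7 in Mock cells. This probe set responded to IFNα with CHX only, with an interaction of 4.49 (SE 0.42, adjusted p = 1.07e-04), or 22.4-fold. The other *Cxcl11* probe set, 1419698_at, had a much smaller interaction, given below, and was not called.

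Other signalling molecules at the cell surface followed with smaller interactions. *Cd274*, which encodes the T-cell inhibitory ligand PD-L1, had intensities of 203.1, 230.6 and 208.4 in IFNα + CHX cells, against 5.8, 7.0 and 6.0 in Mock + CHX cells, and of 74.2, 85.9 and 68.0 in IFNα cells, against 10.2, 9.0 and 6.9 in Mock cells. It rose with IFNα under both conditions, and the interaction was 1.96 (SE 0.19, adjusted p = 1.73e-04). *Il15ra*, the α chain of the interleukin 15 receptor, reached 14.6, 13.7 and 13.4 in IFNα + CHX cells, and its 9 other arrays lay between 4.2 and 6.2 (interaction 1.41, SE 0.14, adjusted p = 1.73e-04). All 9 of these values are dim, and after addition of 16 to each intensity its interaction was 0.492. Together these are the 4 called genes of 24 measured chemokines and cytokines, whose median interaction was −0.11, against −0.0163 over all probe sets.

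**Figure D2:**
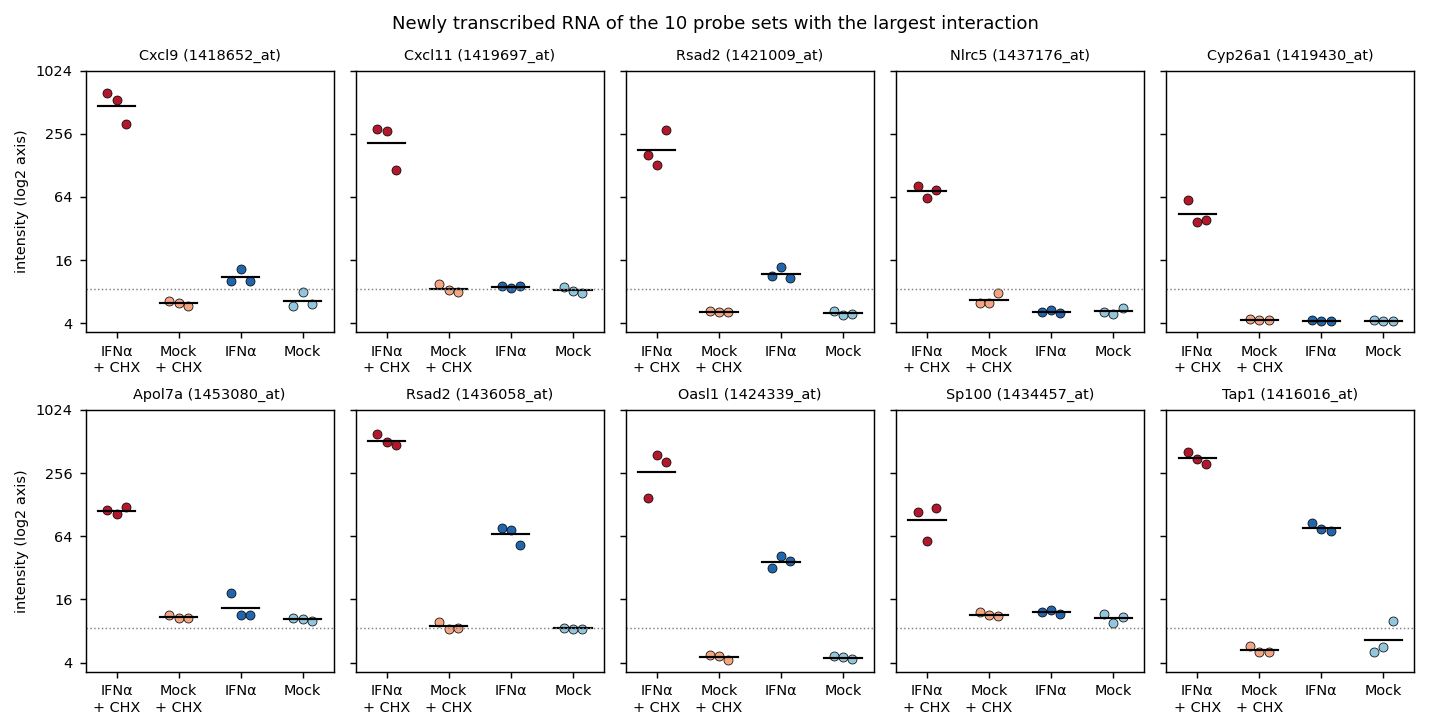
Intensity (log2 axis) of the 10 single-gene probe sets with the largest interaction, each point 1 array of IFNα + CHX, Mock + CHX, IFNα or Mock cells, bars the mean of the 3 log2 values and the dotted line the level of 8.5. The 3 IFNα + CHX arrays lie above the 9 others in every panel, and the IFNα arrays lie clearly above the Mock arrays for *Oasl1*, *Tap1* and *Rsad2*, but not for *Cxcl11*, *Nlrc5* or *Cyp26a1*.

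Antiviral effectors made up the largest group of members. Of 34 measured genes of this list 9 had a significantly positive interaction and none a significantly negative one. Positive values were found for 30 of the 34, with a median of 1.08. Over all probe sets 0.187% had such a call and the median was −0.0163. Among the 128 probe sets that IFNα raised without CHX the median was 1.09, close to that of this list, and 29 were called. The lists below are to be read against both sets of values. *Rsad2* encodes viperin, which makes a nucleotide that terminates viral RNA chains, and its ISRE window is shown above. Its probe set 1436058_at had intensities of 597.7, 504.7 and 472.9 in IFNα + CHX cells, against 9.8, 8.4 and 8.6 in Mock + CHX cells, and of 77.5, 73.2 and 52.9 in IFNα cells, against 8.6, 8.4 and 8.4 in Mock cells. IFNα raised it under both conditions, by 5.87 with CHX and by 2.98 without it on the log2 scale (interaction 2.89, SE 0.20, adjusted p = 5.13e-06). A second probe set, 1421009_at, had intensities of 159.9, 128.4 and 279.1 in IFNα + CHX cells, against 5.2, 5.1 and 5.1 in Mock + CHX cells, and of 11.3, 13.6 and 10.8 in IFNα cells, against 5.2, 4.8 and 4.9 in Mock cells. Its interaction was 3.87 (SE 0.28, adjusted p = 6.17e-06), and that of the third, 1421008_at, was 1.53 (SE 0.09, adjusted p = 1.47e-06). The third probe set was bright on no array, with 13.3 to 14.5 in IFNα + CHX cells and at most 4.7 elsewhere, and its interaction was 0.523 after addition of 16 to each intensity.

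The oligoadenylate synthetase family contains sensors of double-stranded RNA that activate RNase L, and family members that lack this activity. *Oasl1*, a member known in mouse to limit translation of *Irf7* mRNA, had intensities of 147.5, 377.4 and 325.5 in IFNα + CHX cells, against 4.7, 4.6 and 4.2 in Mock + CHX cells, and of 31.7, 41.9 and 37.0 in IFNα cells, against 4.6, 4.5 and 4.3 in Mock cells. The IFNα + CHX arrays varied by more than those of the other treatments, but all lay above the IFNα arrays (interaction 2.83, SE 0.34, adjusted p = 0.00113). *Oas1c*, whose window with overlapping ISRE cores is shown above, reached 38.2, 26.1 and 28.6 in IFNα + CHX cells and lay between 5.8 and 7.4 on the other 9 arrays (interaction 2.24, SE 0.18, adjusted p = 1.73e-05, and 1.05 after addition of 16). *Oasl2* had an interaction of 1.23 (SE 0.19, adjusted p = 0.0072), which was called in 9 of 23 alternative settings. Those of the 23 that only loosened the threshold kept every call by construction, here and below. *Oas1b* just missed the threshold despite a larger interaction of 2.61 (SE 0.42, adjusted p = 0.0115), and passed it with the replicate number as a block (adjusted p = 0.00289). Its intensities were 371.9, 343.1 and 341.5 in IFNα + CHX cells, against 9.2, 9.2 and 8.6 in Mock + CHX cells, and 78.4, 62.1 and 38.2 in IFNα cells, against 9.2, 8.7 and 8.9 in Mock cells. The spread of its IFNα arrays was wide, as was that of *Cmpk2*, a nucleotide kinase, which had an interaction of 2.46 (SE 0.51, adjusted p = 0.0738).

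The *Mx* genes encode dynamin-like GTPases that block virus replication. *Mx2* had intensities of 1213.0, 1155.4 and 983.7 in IFNα + CHX cells, against 5.1, 5.1 and 5.0 in Mock + CHX cells, and of 326.0, 346.2 and 305.1 in IFNα cells, against 5.1, 4.9 and 4.9 in Mock cells. All Mock + CHX and Mock arrays lay between 4.9 and 5.1, and the interaction was 1.75 (SE 0.12, against a median SE of 0.219 over the 52, adjusted p = 4.55e-06). *Mx1* had intensities of 151.0, 111.2 and 109.6 in IFNα + CHX cells, against 9.8, 8.5 and 8.2 in Mock + CHX cells, and of 48.0, 43.5 and 45.1 in IFNα cells, against 8.5, 7.6 and 7.9 in Mock cells (interaction 1.29, SE 0.17, adjusted p = 0.00165). *Slfn8* belongs to the Schlafen family, several members of which restrict viruses. It had intensities of 736.9, 624.4 and 792.2 in IFNα + CHX cells, against 12.4, 10.2 and 10.2 in Mock + CHX cells, and of 217.7, 180.0 and 119.8 in IFNα cells, against 10.2, 9.9 and 10 in Mock cells. The IFNα + CHX arrays lay well above the IFNα arrays (interaction 1.98, SE 0.26, adjusted p = 0.00171).

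Several TRIM ubiquitin ligases were among the members. *Trim21*, a cytosolic antibody receptor, had intensities of 798.3, 577.2 and 475.0 in IFNα + CHX cells, against 4.7, 4.6 and 6.0 in Mock + CHX cells, and of 300.5, 225.9 and 211.8 in IFNα cells, against 8.1, 7.7 and 7.8 in Mock cells (interaction 1.95, SE 0.27, adjusted p = 0.00342). After addition of 16 to each intensity its adjusted p-value was 0.0147. *Trim25*, which activates the RNA sensor RIG-I, was represented by 3 called probe sets with interactions of 1.73, 1.42 and 1.25 (SE 0.22, 0.20 and 0.16). The brightest of them, 1419879_s_at, had intensities of 8737.6, 8814.6 and 9345.5 in IFNα + CHX cells, against 614.7, 534.2 and 490.0 in Mock + CHX cells, and of 6998.3, 6918.1 and 6337.4 in IFNα cells, against 1015.5, 884.0 and 1018.6 in Mock cells. In this probe set the IFNα + CHX arrays were above the IFNα arrays, while the Mock + CHX arrays were below the Mock arrays. *Trim30d* had an interaction of 2.04 (SE 0.29, adjusted p = 0.00473), and the probe set shared by *Trim34a* and *Trim34b* had one of 1.86.

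Among 17 measured nucleic acid sensors and adaptors, whose median interaction was 0.404, 1 was called. *Ifih1*, the gene of the double-stranded RNA sensor MDA5, had intensities of 247.1, 170.1 and 194.2 in IFNα + CHX cells, against 7.3, 6.1 and 6.2 in Mock + CHX cells, and of 77.7, 52.2 and 42.5 in IFNα cells, against 6.1, 6.2 and 6.1 in Mock cells (interaction 1.77, SE 0.25, adjusted p = 0.00452). The other sensors of the RIG-I family had interactions of 1.66 for *Dhx58* (adjusted p = 0.099, and 0.00661 with the replicate number as a block) and 1.15 for *Ddx58* (adjusted p = 0.0708). *Tlr3*, an endosomal RNA receptor, had one of 1.5 (adjusted p = 0.0454). The RNA editing enzyme *Adar* was already expressed in Mock cells at 378.1 to 422.1 and reached 1860.9 to 2161.4 in IFNα + CHX cells (interaction 1.64, SE 0.25, adjusted p = 0.00661, called in 11 of 23 alternative settings). Its other probe sets had interactions of 0.99 and 1.39, neither called. *Cmtr1*, a methyltransferase of the mRNA cap, had 30.4, 24.3 and 35.8 in IFNα + CHX cells, against 3.5, 4.3 and 4.3 in Mock + CHX cells, and 4.9, 5.5 and 10.1 in IFNα cells, against 3.5, 4.2 and 4.8 in Mock cells. Its highest array without CHX, at 10.1, lay below all IFNα + CHX arrays (interaction 2.24, SE 0.35, adjusted p = 0.00851), but it was called in 8 of 23 alternative settings, and the interaction was 1.02 after addition of 16. The 3 other probe sets of *Cmtr1* had interactions of 0.87, 1.2 and 0.69, none called.

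Immunity-related GTPases attack the membranes of vacuoles that hold intracellular pathogens. Of 5 measured genes 2 were called, with a median interaction of 1.32 over the list. *Irgm2*, with its ISRE window shown above, had intensities of 4464.4, 4154.6 and 3734.5 in IFNα + CHX cells, against 10, 8.9 and 9.0 in Mock + CHX cells, and of 1547.0, 1300.8 and 1077.7 in IFNα cells, against 9.0, 7.6 and 9.5 in Mock cells (interaction 1.57, SE 0.20, adjusted p = 0.00149). *Iigp1* had intensities of 1300.5, 1238.1 and 882.2 in IFNα + CHX cells, against 12.5, 12 and 12 in Mock + CHX cells, and of 356.0, 266.7 and 261.9 in IFNα cells, against 12.2, 11.4 and 11.6 in Mock cells (interaction 1.89, SE 0.24, adjusted p = 0.00167). Both genes were at 12.5 or below without IFNα, and the lowest IFNα + CHX array was more intense than the highest IFNα array. The probe set shared by *Tgtp1* and *Tgtp2*, GTPases of the same family, had an interaction of 2.01. *Igtp* had one of 1.32 (adjusted p = 0.219). None of the 6 measured guanylate-binding proteins was called, although their median interaction was 1.45. *Gbp7*, in the probe set that stood for it in the list (1434380_at), had an interaction of 1.76 (SE 0.31, adjusted p = 0.0253), and had intensities of 1415.0, 1377.0 and 1211.6 in IFNα + CHX cells, against 13.0, 11.4 and 21.7 in Mock + CHX cells, and of 390.1, 360.2 and 346.5 in IFNα cells, against 10.2, 15.7 and 16.1 in Mock cells. Closer to the threshold were another probe set of *Gbp7* with 2.30 (adjusted p = 0.0141), and *Gbp2* probe set 1418240_at with 1.92 (adjusted p = 0.0164), which was called with the replicate number as a block. *Gbp6* had an interaction of 1.59 (adjusted p = 0.036).

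Genes of ISG15 conjugation and ADP-ribosylation contributed 4 called genes of 10 measured, with a median of 0.794 over the list. *Usp18* removes ISG15 from proteins and also blocks signalling at the IFNα receptor. Its intensities were 2167.3, 1990.9 and 1901.1 in IFNα + CHX cells, against 5.9, 6.4 and 6.4 in Mock + CHX cells, and 659.0, 650.3 and 578.0 in IFNα cells, against 6.5, 6.5 and 6.2 in Mock cells. The log2 response was 8.34 with CHX and 6.62 without it (interaction 1.72, SE 0.21, adjusted p = 0.00138). *Parp12*, a mono-ADP-ribosyltransferase, had intensities of 1367.1, 1514.9 and 1440.0 in IFNα + CHX cells, against 56.1, 86.6 and 81.8 in Mock + CHX cells, and of 758.5, 758.9 and 799.8 in IFNα cells, against 111.8, 126.4 and 149.7 in Mock cells. Here the IFNα + CHX arrays lay above the IFNα arrays and the Mock + CHX arrays below the Mock arrays (interaction 1.70, SE 0.23, adjusted p = 0.00255). *Parp9*, a partner of the ubiquitin ligase DTX3L, had an interaction of 1.66 (SE 0.22, adjusted p = 0.00211). *Parp14* had one of 1.38 (SE 0.21, adjusted p = 0.00661), and lost its call with the replicate number as a block (adjusted p = 0.0117). It was called in 6 of 23 alternative settings.

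In antigen presentation 2 of 16 measured genes were called, against a median of 0.111 over the list. *Tap1*, a subunit of the transporter that brings peptides to MHC class I, had intensities of 407.9, 349.3 and 311.3 in IFNα + CHX cells, against 5.7, 5.0 and 5.0 in Mock + CHX cells, and of 86.2, 74.8 and 71.7 in IFNα cells, against 5.0, 5.6 and 9.9 in Mock cells (interaction 2.51, SE 0.30, adjusted p = 0.00112). *Nlrc5*, the transactivator of MHC class I genes, had intensities of 82.2, 62.0 and 74.0 in IFNα + CHX cells, against 6.3, 6.2 and 7.8 in Mock + CHX cells, and of 5.1, 5.4 and 5.0 in IFNα cells, against 5.1, 4.9 and 5.6 in Mock cells. It showed a response with CHX of 3.42 and without CHX of −0.01 (interaction 3.43, SE 0.21, adjusted p = 1.47e-06, and 1.96 after addition of 16). MHC class I probe sets that match several genes were called as well, with interactions of 3.13 for *H2-Q5* and *H2-K1*, 1.97 for *H2-Q6* and *H2-Q8* and 1.16 for *H2-T9*, *H2-T22* and *H2-T10*. The first and the second of these were below 8.5 in all treatments except IFNα + CHX, and after addition of 16 to each intensity their interactions were 1.06 and 0.846, the last under 2-fold. For such probe sets the gene that gave the signal cannot be told apart. *H2-D1*, a classical class I gene, had an interaction of 1.26, which passed the threshold only with the replicate number as a block (adjusted p = 0.00475).

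Several of the strongest members lie outside these groups. *Cyp26a1*, which degrades retinoic acid, had intensities of 60.3, 37.2 and 38.2 in IFNα + CHX cells and between 4.2 and 4.4 on the other 9 arrays (interaction 3.35, SE 0.34, adjusted p = 1.73e-04). These 9 values are dim, and the interaction was 1.57 after addition of 16 to each intensity. *Apol7a*, of the apolipoprotein L family, had intensities of 113.2, 103.7 and 120.8 in IFNα + CHX cells, against 11.4, 10.6 and 10.6 in Mock + CHX cells, and of 18.4, 11.4 and 11.4 in IFNα cells, against 10.7, 10.3 and 10 in Mock cells (interaction 3.00, SE 0.24, adjusted p = 1.73e-05). *Apol6* of the same family had an interaction of 2.30 (SE 0.33, adjusted p = 0.00474), which was 1.5 after addition of 16, and was called in 10 of 23 alternative settings. In *Cyp26a1* and *Apol7a* the IFNα + CHX arrays did not overlap with those of any other treatment. *Crem*, a transcription factor of the cAMP response, had intensities of 107.9, 89.2 and 98.5 in IFNα + CHX cells, against 11.7, 11.2 and 10.5 in Mock + CHX cells, and of 24.9, 15.8 and 15.9 in IFNα cells, against 10.3, 9.2 and 9.5 in Mock cells (interaction 2.21, SE 0.26, adjusted p = 7.98e-04). *BC023105* had 40.4, 40.3 and 28.9 in IFNα + CHX cells and 5.3 to 6.8 on the other 9 arrays (interaction 2.39, SE 0.22, adjusted p = 8.26e-05, and 1.19 after addition of 16).

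*Sp100*, a component of PML nuclear bodies, had probe sets that went in opposite directions. The called probe set 1434457_at had intensities of 109.9, 58.2 and 118.9 in IFNα + CHX cells, against 12, 11.4 and 11 in Mock + CHX cells, and of 12.2, 12.7 and 11.6 in IFNα cells, against 11.5, 9.6 and 10.8 in Mock cells (interaction 2.80, SE 0.27, adjusted p = 1.54e-04). In contrast, 1451821_a_at had intensities of 8.9, 7.9 and 12.1 in IFNα + CHX cells, against 7.4, 7.3 and 6.7 in Mock + CHX cells, and of 21.6, 23.7 and 16.1 in IFNα cells, against 7.3, 6.8 and 6.8 in Mock cells. Its interaction of −1.13 did not pass the threshold (adjusted p = 0.0386). The probe sets of this gene therefore do not give a single direction.

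A further set of members had values well above the dim range before any interferon. *Rnf213*, a large ubiquitin ligase, had intensities of 4731.9, 4630.0 and 4501.8 in IFNα + CHX cells, against 229.8, 226.5 and 202.0 in Mock + CHX cells, and of 2429.6, 2327.3 and 2490.2 in IFNα cells, against 376.0, 347.3 and 352.3 in Mock cells (interaction 1.65, SE 0.19, adjusted p = 8.95e-04). *Nampt*, an enzyme of NAD synthesis, had intensities of 882.8, 737.9 and 673.7 in IFNα + CHX cells, against 181.9, 155.1 and 173.1 in Mock + CHX cells, and of 526.5, 496.9 and 539.2 in IFNα cells, against 351.2, 421.7 and 289.8 in Mock cells (interaction 1.59, SE 0.21, adjusted p = 0.00187). *Nampt* thus had its lowest values in Mock + CHX cells. The mitochondrial phosphatase gene *Ppm1k* had 82.6, 80.7 and 81.8 in IFNα + CHX cells and 21.8 to 29.5 on the other 9 arrays (interaction 1.47, SE 0.17, adjusted p = 8.95e-04). Both *Rnf213* and *Ppm1k* had 2 tested probe sets, of which only 1 had a positive interaction. *Casp4*, the gene of a caspase that senses bacterial lipopolysaccharide, had an interaction of 1.47 (SE 0.22, adjusted p = 0.00756), *Gm20559* of 1.61 (adjusted p = 5.51e-04) and *Crebrf*, a regulator of the transcription factor CREB3, of 1.42 (adjusted p = 0.0072). *Casp4* was called in 7 and *Crebrf* in 9 of 23 alternative settings. The lysosomal membrane protein gene *Gpr155* had 92.2, 79.8 and 66.8 in IFNα + CHX cells, against 28.2, 27.3 and 36.3 in Mock + CHX cells, and 73.3, 39.9 and 48.1 in IFNα cells, against 74.1, 86.2 and 60.0 in Mock cells. Its IFNα + CHX and Mock arrays overlapped, and its interaction of 1.86 (adjusted p = 0.00844) fell short of the threshold after addition of 16 to each intensity (adjusted p = 0.0111). It was called in 7 of 23 alternative settings.

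*Itgb8*, the integrin β8 subunit, had an interaction of another form. Its intensities were 31.9, 31.1 and 32.2 in IFNα + CHX cells, against 34.0, 30.1 and 30.1 in Mock + CHX cells, and 43.6, 37.9 and 30.6 in IFNα cells, against 89.7, 113.0 and 82.4 in Mock cells. The Mock arrays alone were high. IFNα lowered it by 1.35 on the log2 scale without CHX (adjusted p = 9.48e-05), the response with CHX was 0.02, and CHX without interferon lowered it by 1.59 (interaction 1.37, SE 0.21, adjusted p = 0.00762, called in 7 of 23 alternative settings). The unnamed probe set 1440084_at had the same form, with 19.6 to 24.0 in Mock cells and 7.2 to 8.1 in the other treatments.

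None of the 9 measured genes for the IFNα receptor, its kinases and its transcription factors was called, where 0.187% of all probe sets were, so that the count says little, and their median interaction was 0.344. *Stat2* had an interaction of 0.63 with a standard error of 1.00, and *Irf9* had one of 0.77 (SE 0.42). Of 18 measured negative regulators of IFN signalling *Usp18* alone was called, with a median of 0.191 over the list. *Socs1*, an inhibitor of JAK kinases, had intensities of 214.1, 265.2 and 152.7 in IFNα + CHX cells, against 46.9, 66.9 and 34.6 in Mock + CHX cells, and of 288.9, 291.9 and 192.3 in IFNα cells, against 171.7, 117.3 and 127.0 in Mock cells. The Mock + CHX arrays were the lowest, and the interaction of 1.22 did not pass the threshold (SE 0.51, adjusted p = 1.00). Its relatives *Socs2* and *Socs3* had interactions of 0.92 and 0.07, and *Irf2*, a repressor that competes with IRF1, had one of 1.01, none of them called. The 6 measured IFN regulatory factors had a median of 0.68 and no call. *Irf7*, which amplifies the interferon response, had an interaction of 1.30 (SE 0.46, adjusted p = 0.777).

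*Irf1* and *Cxcl10* lay on the negative side. *Irf1*, the gene of an activator that is itself made in response to interferon, had intensities of 11268, 11656 and 10501 in IFNα + CHX cells, against 2465.1, 1501.2 and 1319.9 in Mock + CHX cells, and of 4070, 4151.3 and 3580.4 in IFNα cells, against 376.2, 203.7 and 212.9 in Mock cells. It was most intense in IFNα + CHX cells, while CHX without interferon also raised it, by 2.74 on the log2 scale. Its interaction was −1.24 (95% interval −1.96 to −0.51, adjusted p = 0.312). *Cxcl10*, a further ligand of CXCR3, had intensities of 15790, 13847 and 9236.7 in IFNα + CHX cells, against 1530.3, 583.5 and 323.5 in Mock + CHX cells, and of 3021.8, 2845.5 and 2130.5 in IFNα cells, against 70.4, 49.1 and 35.6 in Mock cells. Its interaction was −1.47 (SE 0.61, adjusted p = 1.00), and −0.865 without Mock + CHX replicate 1. The lowest p-values on the negative side were those of *Sp100*, given above, and *Limk2*, a kinase of the actin cytoskeleton, with −0.71 (adjusted p = 0.0386), which was below 2-fold. They were followed by *Msrb3*, a reductase of oxidised methionine, with −1.14 (adjusted p = 0.0522), the DNA repair gene *Ercc6* with −0.75 (adjusted p = 0.0824) and *Marveld1* with −0.93 (adjusted p = 0.0982).

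Lists of other programmes that CHX can alter held no called gene, a count that differs little from the 0.187% over all probe sets, and had medians close to that of all probe sets. Of 24 measured NF-κB target genes 15 rose with CHX alone, but none was called in the interaction, and their median was −0.0602. Likewise there was no call among 8 histone genes, of which 7 rose with CHX alone (median interaction −0.0616), or among 30 Myc targets, of which 11 fell with CHX alone (median −0.0408). Without interferon CHX raised 698 probe sets (2.51% of all tested) and lowered 1131 (4.07%). The 32 immediate early genes had a median of −0.0203, the 20 genes of the endoplasmic reticulum and amino acid stress responses 0.0164 and the 15 p53 targets 0.0308, with no call in any of these lists. The 21 early targets of STAT dimers had a median of 0.115 and 3 called members. The plot of the interaction by gene list places the guanylate-binding proteins, the immunity-related GTPases and the antiviral effectors at the top.

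**Figure D3:**
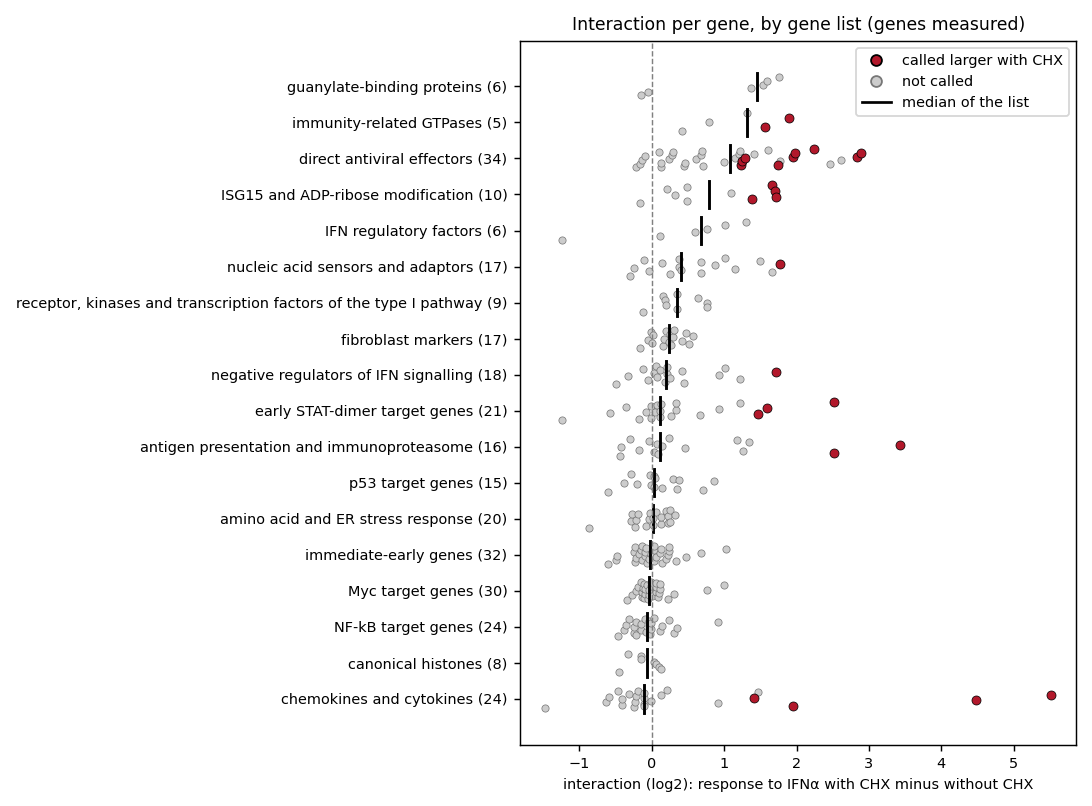
Interaction (log2, horizontal axis) of the measured genes of each list, each point 1 gene, red where called, with the list median as a vertical bar and the number of genes measured beside the list name. The medians of guanylate-binding proteins (1.45, 0 of 6 called), immunity-related GTPases (1.32, 2 of 5) and antiviral effectors (1.08, 9 of 34) lie to the right of 0, while those of NF-κB targets, histones and Myc targets lie close to it.

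For most members the interaction arose in the cells that had received both agents. In IFNα-treated cells CHX raised 43 of the 52 significantly, where it raised 991 probe sets in all (3.57% of all tested), and lowered 0. In cells without interferon CHX raised 0 of the 52, against 2.51% of all tested, so that this count says little. It lowered 5, against 4.07% of all tested, those of *Gpr155*, *Nampt*, *Itgb8*, *Trim25* (1425974_a_at) and 1440084_at. Falls with CHX alone of less than 2-fold, at an adjusted p under 0.01, were found for *Parp12* (−0.80), *Rnf213* (−0.71) and *Trim25* 1419879_s_at (−0.84). The median effect of CHX on the 52 was 1.74 in IFNα-treated cells and 0.0313 in cells without interferon. All 3 IFNα + CHX arrays lay above the 9 other arrays for 49 of the 52, against 572 of all tested probe sets (2.06%). Both of these measures use the same arrays as the interaction and only describe its form. In 23 of the 52 the means of both mock treatments were below 8.5. In 10 those of all treatments of the contrast except IFNα + CHX were, so that these 10 could hardly overlap. The filter used all 18 arrays. Some of the 10, such as *Nlrc5* and *BC023105*, also passed it through IFNγ arrays, while others, such as *Oas1c* and *Il15ra*, exceeded 8.5 with IFNα + CHX only. For the 23 the size of the response depends on values near the bottom of the scale.

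Strong responses to IFNα came with large and with small interactions. Among the 128 probe sets raised without CHX the median interaction was 1.09, 117 had a positive interaction, and 29 were called. When these were divided by their level in IFNα cells, the 43 dimmest (11.8 to 165) had a median interaction of 1.08 with 11 called, the next 42 (167 to 640) had 1.38 with 10 called, and the 43 brightest (670 to 12900) had 0.802 with 8 called. The level and the interaction share the IFNα arrays, so that this is a description without a test. Some strongly induced genes had interactions close to 0. *Ifit1*, which binds viral RNA lacking cap methylation, had intensities of 10108, 10397 and 9128.8 in IFNα + CHX cells, against 111.0, 63.6 and 68.5 in Mock + CHX cells, and of 6470.2, 6036.6 and 5933.0 in IFNα cells, against 52.1, 58.3 and 50.1 in Mock cells. The interaction was 0.13 (95% interval −0.45 to 0.71). *Rtp4*, a chaperone of receptors, had intensities of 2831.4, 2831.6 and 2035.3 in IFNα + CHX cells, against 22.4, 22.9 and 13.9 in Mock + CHX cells, and of 2021.6, 1989.6 and 1743.7 in IFNα cells, against 15.7, 19.5 and 12.4 in Mock cells (interaction 0.10, interval −0.64 to 0.84). Both intervals end below the 2-fold change that a call required. *Ifi35* and the GTPase gene *Ifi47* had interactions of 0.11 (interval −0.83 to 1.05) and 0.20 (interval −0.74 to 1.13). For *Dtx3l*, the partner of *Parp9*, the interval of −1.75 to 1.87 was too wide to tell.

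Whether the effect of CHX differed between the interferons was tested as the CHX effect in IFNα-treated cells minus that in IFNγ-treated cells, in which the mock arrays cancel. Over all probe sets 39 were significantly higher under IFNα (0.14% of all tested) and 24 significantly lower (0.0864%). With the 12 arrays of that comparison alone these were 21 and 11, with the replicate block on them 16 and 12, and without IFNα replicate 2 or IFNγ replicate 3 the lower ones were 14 or 15. Of the 52 members 23 were among the higher and 0 among the lower, with a median of 1.37. The members were chosen on IFNα arrays that this comparison also uses, so that their count is not independent. *Rsad2* (1421009_at) had intensities of 5.1, 5.0 and 5.1 in IFNγ + CHX cells and of 5.1, 5.1 and 4.9 in IFNγ cells, and thus did not respond to IFNγ. Its difference between the CHX effects was 3.91 (SE 0.28, adjusted p = 3.87e-06). *Cd274* had intensities of 118.4, 121.0 and 118.6 in IFNγ + CHX cells and of 319.8, 274.3 and 325.5 in IFNγ cells, so that the arrays with CHX were below those without it, opposite to the order under IFNα (difference 2.85, adjusted p = 2.99e-06). *Cxcl9* (1418652_at) had intensities of 9420, 8459.8 and 8315.6 in IFNγ + CHX cells and of 2098.7, 1781.9 and 1605.5 in IFNγ cells. In this probe set CHX therefore went with higher values under both interferons, with a difference of 3.18 (SE 0.30, adjusted p = 5.66e-05). The other *Cxcl9* probe set, 1456907_at, had a difference of −5.34 (SE 0.31, adjusted p = 7.09e-07). The probe sets of this gene therefore do not give a single direction in this comparison.

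For other members this difference did not pass the threshold, which does not show that the effects were equal. *Cxcl11* had intensities of 641.0, 346.6 and 423.4 in IFNγ + CHX cells and of 14.1, 12.3 and 8.8 in IFNγ cells, and the difference between the CHX effects was −0.77. *Usp18* reached only 24.0, 40.2 and 24.9 in IFNγ + CHX cells and 9.4, 9.0 and 9.8 in IFNγ cells, yet the difference between the CHX effects was 0.06. For *Tap1* the difference was 1.02 (adjusted p = 0.341), for *Nlrc5* 1.15 (adjusted p = 0.0239), for *Rnf213* 0.11, for *Nampt* −0.02 and for *Ppm1k* 0.06. Among the called members *Mx2* had a difference of 1.73, *Ifih1* of 1.78, *Iigp1* of 2.04, *Oas1c* of 2.21 and *Cyp26a1* of 2.65. On the IFNγ arrays with and without CHX, *Mx2* lay at 4.9 to 5.2, *Ifih1* at 6.1 to 6.9, *Oas1c* at 5.8 to 7.1 and *Cyp26a1* at 4.2 to 9.8. The differences of these genes thus mostly restate their interaction with IFNα. *Iigp1* was high under IFNγ, at 2652.2 to 3958.8 with CHX and 3053.1 to 3750.1 without it.

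**Figure D4:**
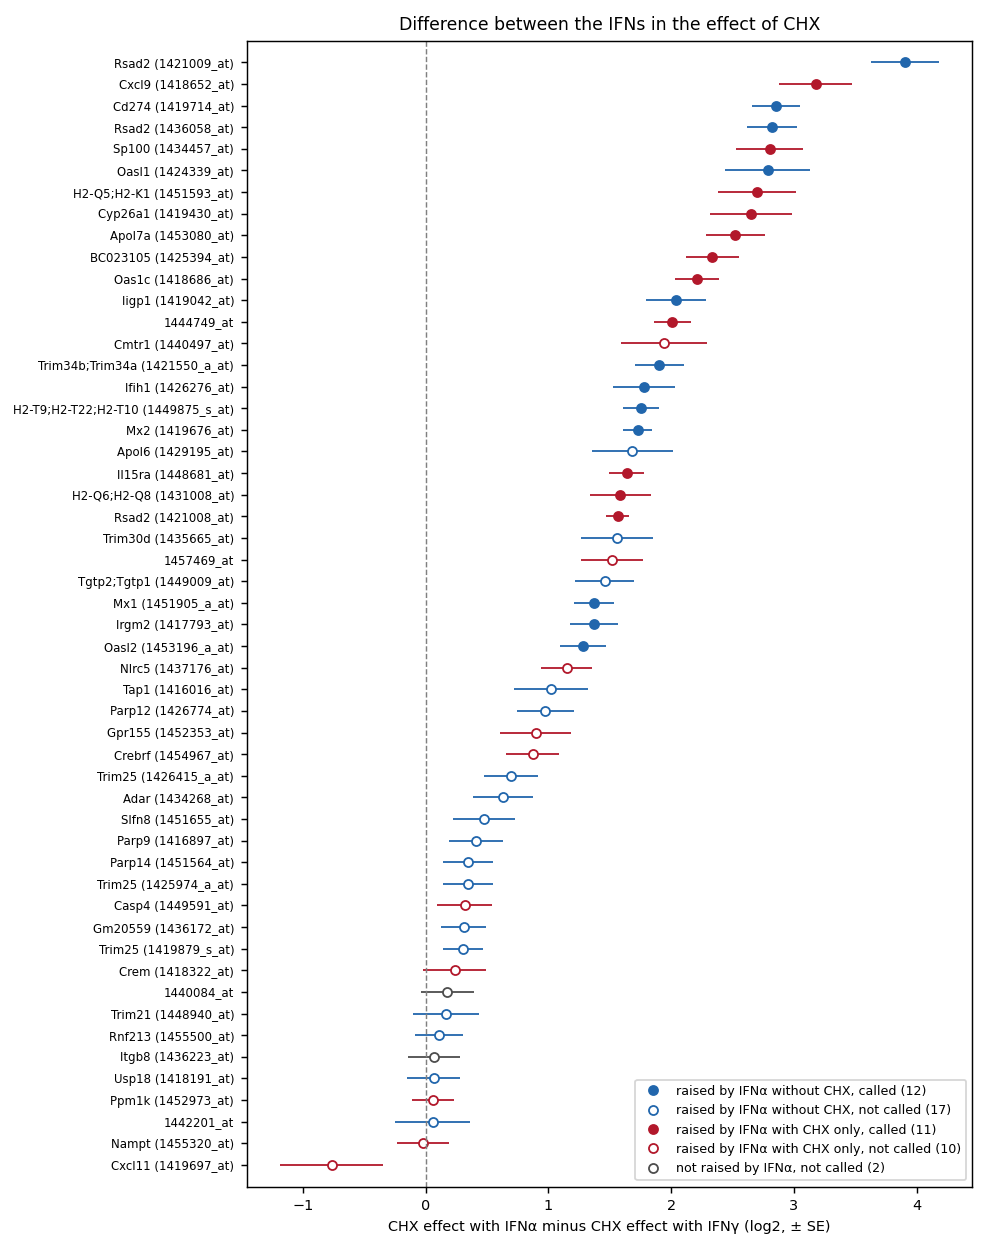
CHX effect in IFNα-treated cells minus CHX effect in IFNγ-treated cells (log2, horizontal axis, bars ± SE) for the 52 members, ordered by size, filled where the difference was called and coloured by class. The difference was called for 12 of the 29 members raised without CHX and for 11 of the 21 raised with CHX only, and it ranged from 3.91 for *Rsad2* to −0.77 for *Cxcl11*.

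The members depended in part on which probe set of a gene was read. Of the 39 genes 22 had a single tested probe set and 17 had several, and for 2 of these 17 all were called. Together the 39 genes had 64 tested probe sets. The 21 that were not called comprised 17 with a positive and 4 with a negative interaction, the latter from *Crem*, *Ppm1k*, *Rnf213* and *Sp100*. *Cxcl9* probe set 1456907_at had an interaction of 0.60 and *Cxcl11* probe set 1419698_at one of 0.22, well below those of the called probe sets. At the threshold, the highest adjusted p-value of a called probe set was 0.00851, that of *Cmtr1*. Just beyond it lay *Acta2*, smooth muscle actin, with an interaction of 2.32 (adjusted p = 0.0101). Its log2 response to IFNα was 0.20 with CHX and −2.12 without it, so that its interaction came from a fall without CHX. Next were *Pml*, the organiser of PML nuclear bodies, with 1.77 (adjusted p = 0.0104), and *C1s1*, a protease of the complement cascade, with 2.29 (adjusted p = 0.0104). Their responses were 3.06 and 2.57 with CHX, against 1.28 and 0.28 without it.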

How the data were processed

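The authors hybridised 4sU-labelled RNA to Affymetrix MG 430 2.0 arrays and deposited 1 linear intensity per probe set and array. Their methods name gc-RMA, whereas the submitters' notes name Affymetrix Expression Console with no version given. All 18 value columns matched a labelled sample (0 did not). Of 45101 probe sets 64 controls were left out, and of the other 45037 a single symbol was annotated for 34945, several for 932 and none for 9160.

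Intensities were taken as log2(value) with no constant. Detection calls were not used here, so the filter kept the brightest probe sets by maximum over the arrays, in the number that the methods imply with ties (27773, of which 22348 with a single symbol, for 12121 genes). All 18 arrays entered a single limma model of 6 treatments (limma 3.58.1, R 4.3.3, 12 residual and 2.05 prior degrees of freedom). Benjamini-Hochberg adjustment ran over all probe sets kept. The test was checked on simulated data. The 3 arrays per treatment limit the precision.

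The genes and lists were chosen with earlier results of these data known. Named are every called gene, with values per array for the 10 largest, up to 4 members of each list by size of interaction, the 5 with the lowest p-value on the negative side, the 5 with the smallest interaction among those changed at least 8-fold by IFNα, the negative regulators that the study names, and the 5 largest differences from IFNγ in each direction. Values per array of further members, and the genes and probe sets just past the threshold were added after their values were seen. A list gene with several probe sets was represented by 1 of them.

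Arrays of the same replicate number, taken from the labels, deviated together from their treatment means (correlations of 0.239 to 0.784 over 18 pairs, against −0.743 to 0.396 over 36 pairs of other numbers). The numbers thus appear to pair the samples. Deviations within a treatment sum to 0, which pushes pairs of other numbers towards negative values. For Mock replicate 2 the correlation was 0.239 with Mock + CHX replicate 2 and 0.396 with Mock + CHX replicate 3. The values reported come from the model without this pairing, and a replicate block was an alternative. Alternatives were an added constant of 16, the arrays of the contrast alone, quantile or median scaling, no filter or a minimum of 32, trended robust moderation, the block, other thresholds, the mean over the probe sets of a gene, a shorter ISRE core, each array left out and, added after seeing the data, the block with the 12 arrays alone.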

Additional observations from a re-analysis of the deposited data

Results flagged for a closer look

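The response to IFNα differed with and without CHX for 52 probe sets by the interaction test, and the effect of CHX differed between IFNα and IFNγ for 39 probe sets that were higher and 24 that were lower under IFNα (limma, adjusted p-values). The largest differences are given on the log2 scale as the CHX effect with IFNα minus that with IFNγ. *Krtap1-5*, a hair keratin-associated protein gene, had a difference of 4.26 (SE 0.60, adjusted p = 0.0036) with intensities of 233.2, 104.7 and 40.9 in IFNα + CHX cells and 4.8, 4.7 and 4.8 in IFNα cells, and of 4.9, 5.7 and 5.0 in IFNγ + CHX cells and 4.8, 4.8 and 4.6 in IFNγ cells. Its IFNα + CHX arrays spread widely, and its interaction with IFNα was −0.37, as CHX without interferon raised it as well. *Rsad2* (3.91) and *Cxcl9* probe set 1418652_at (3.18) are members described in the report. *Ccl11*, an eosinophil attractant, had a difference of 3.13 with 12.5, 25.4 and 21.2 in IFNγ + CHX cells and 156.2, 124.8 and 127.5 in IFNγ cells, and was thus lower with CHX under IFNγ. *Gbp2*, a guanylate-binding protein gene, had one of 3.02 in probe set 1418240_at, with 958.3, 964.4 and 860.0 in IFNγ + CHX cells and 2924.1, 3109.4 and 3261.2 in IFNγ cells. The 4 IFNα and mock treatments of *Ccl11* lay between 8.8 and 12.4.

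Lower under IFNα was *Cxcl9* probe set 1456907_at (−5.34, SE 0.31, adjusted p = 7.09e-07), opposite to the other probe set of this gene. It had 13.8, 10.4 and 11.2 in IFNα + CHX cells, while it had 964.9, 930.1 and 880.3 in IFNγ + CHX cells and 18.4, 19.9 and 8.8 in IFNγ cells. The others were *Serpinb1a* (−4.62) and *Serpinb1b* (−3.97), genes of protease inhibitors, *Icam1* (−4.39), an adhesion molecule gene, and *Sgk2* (−3.22), a kinase gene. Groups of 3 arrays are too small for a test of single outlying arrays.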

How the results depend on the processing

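The 52 positive interactions became 29 with only the 12 arrays of the contrast and 79 at an adjusted p under 0.05, where 1 negative interaction was also called. With single arrays left out there were 38 to 45 positive and 0 to 2 negative calls, and 36 to 42 of the 52 remained. The other settings gave 35 to 68 positive and 0 negative calls, the most with the replicate number as a block (68, of which 51 were among the 52). For the difference between the CHX effects with IFNα and with IFNγ the 39 higher and 24 lower calls became 21 and 11 with the 12 arrays of that contrast, 70 and 47 at an adjusted p under 0.05, 50 and 36 with the replicate block, and 16 and 12 with the block on the 12 arrays. With single arrays left out they were 26 to 44 higher and 14 to 35 lower, with 14 without IFNα replicate 2 and 15 without IFNγ replicate 3. Among the genes named by the rules above, the block changed the interaction call of *Parp14*, *Oas1b*, *Dhx58*, *H2-D1* and *Gbp2* (1418240_at), and of no other. Genes just past the threshold that were added later, such as *Acta2* and *Pml*, were not followed through the settings. The cause of these shifts was not tested.

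Of the 52 probe sets 20 were called in all 23 other settings, among them both chemokines, *Nlrc5*, *Cyp26a1*, *Mx2*, *Cd274* and *Usp18*, whereas *Parp14* was called in 6, *Casp4*, *Gpr155* and *Itgb8* in 7, *Cmtr1* in 8, *Oasl2* and *Crebrf* in 9, *Apol6* in 10 and *Adar* in 11. These counts include the settings with an adjusted p under 0.05 and without a fold minimum. Both reused the main fit with a looser threshold, so that all 52 passed them by construction. Over all named genes 1780 comparisons with an alternative counted as unchanged, 192 lost the call, 31 gained it and 39 moved by more than the spread. Where either fit called the probe set, unchanged meant the same call and direction, and 0 of these reversed. Where neither did, it meant a shift smaller than the spread, and direction was not checked. Median centring moved the median of all probe sets to 0.05. The shorter ISRE core raised the share of called genes with a match to 46.4%. Responses of members at or below 8.5 without IFNα rest on dim values, and 3 arrays per treatment limit every comparison.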
